A study of Mus musculus with 6 samples.

Results

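The collagen genes of mouse mammary epithelial cells were compared between cells that are sensitive to an EGFR inhibitor and cells that have become resistant to it. NME cells are normal murine mammary gland (NMuMG) cells transformed by overexpression of EGFR. AGR cells descend from 1 colony of NME cells that grew in 3D culture in the presence of 1 µM AG1478, an inhibitor of the EGFR kinase, and that was then expanded in 2D culture. Both cell lines therefore carry the EGFR transgene, and AGR cells represent a single resistant isolate. According to the paper, resistant lines were kept without drug once they were established. Total RNA was measured on 3 arrays for NME cells and 3 arrays for AGR cells, all of the type Affymetrix Mouse Gene 1.0 ST. Whether separate cultures were used for the arrays of 1 line is not stated, so a p-value here reflects no more than array-to-array spread, which may be technical.

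A collagen gene was defined by its symbol, which had to be Col, a number, the letter a and a number. This rule found 44 genes among the 19938 genes that had a probe set (the group of probes for 1 transcript) with exactly 1 gene symbol. Where a gene had several probe sets the brightest was used, which concerned only Col6a5 and Col6a6. All values are log2 of the deposited intensity, a scale on which 1 unit is a doubling. No detection calls came with the arrays. The median over all probe sets was a log2 intensity of 7.61, and 6 collagen genes were dimmer than this in both cell lines. For a dim probe set a steady intensity does not show that the transcript is present.

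Collagens are secreted or membrane-spanning proteins whose chains wind into triple helices, and most types need chains from several genes. Fibrillar collagens such as type I form the strong fibers of connective tissue, and fibroblasts are their main source. Type IV collagen builds the sheet-like network of the basement membrane on which mammary epithelium rests. Type VI collagen forms beaded filaments next to basement membranes, and fibril-associated collagens decorate the surface of fibrils.

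In AGR cells 6 of the 44 collagen genes rose and 1 fell at an adjusted p under 0.05 (limma, Benjamini-Hochberg adjustment over all genes tested). The other 37 did not pass the test. Of all genes tested, 12.6% were higher and 11.6% were lower, so the share of collagens that rose, 13.6%, was near the background and the share that fell was 2.27%. The genes that rose were Col12a1, Col6a1, Col4a2, Col4a1, Col18a1 and Col6a2, and the gene that fell was Col15a1. Of the 11 fibrillar collagen genes 0 passed the limma test, and 2 of them, Col5a1 and Col5a2, had an unadjusted p under 0.05. The median log2 fold change (FC, AGR over NME) of the 44 genes was -0.01, against -0.02 for all genes.
The 6 increases ranged from 1.29-fold to 2.08-fold. A FC above 2 together with an adjusted p under 0.05, the threshold for differentially expressed genes (DEGs), was met by Col12a1 and Col6a1 and by no collagen gene in the other direction. Of all genes 1.5% met it as higher and 1.5% as lower. Both genes lay close to this threshold, and their log2 FCs were both 0.99 without AGR replicate 3, while that of Col6a1 was 0.96 without NME replicate 1.
The ranges of the NME and AGR arrays did not overlap for 9 collagen genes, which were the 7 genes above, Col5a1 and Col5a2. This held for 36.4% of all genes tested.
NME replicate 2 gave the highest of the 3 NME values for 43 of the 44 collagen genes (in Col6a6 as a tie), with Col4a3 as the exception, and for 39.6% of all genes. Why this array was so often the highest was not tested. Without this array 6 collagen genes were higher and 1 was lower, with Col6a2 close to the threshold (adjusted p = 0.0478 from limma).

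**Figure D1:**
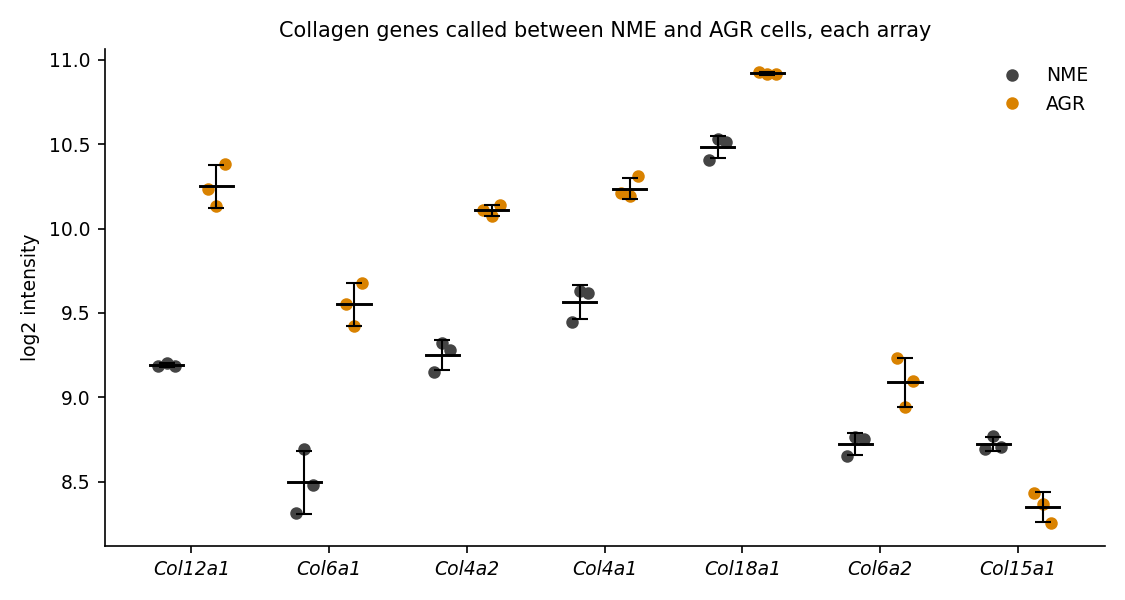
Log2 intensity (y axis) of the 7 collagen genes that passed the test, on each of the 3 NME arrays (dark gray) and the 3 AGR arrays (orange), with the mean and SD in black. The groups did not overlap for any of the 7 genes, and Col15a1 was the gene that was lower in AGR cells.

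Type IV collagen is built from 6 genes, of which Col4a1 and Col4a2 encode the chains found in nearly all basement membranes. Both rose in AGR cells. Col4a2 had log2 intensities of 9.15, 9.32 and 9.28 in NME cells and of 10.11, 10.07 and 10.14 in AGR cells. All AGR arrays lay above all NME arrays, by far more than the spread within a cell line. The mean moved from 9.25 ± 0.09 (SD, n = 3) to 10.11 ± 0.03 (SD, n = 3), a 1.81-fold increase (log2 FC 0.86, adjusted p = 1.0e-04 from limma).
Col4a1 had log2 intensities of 9.45, 9.63 and 9.62 in NME cells and of 10.21, 10.19 and 10.31 in AGR cells. Again the groups were well apart. The log2 FC was 0.67 (95% interval 0.52 to 0.83, adjusted p = 5.3e-04 from limma), which is a 1.59-fold increase.
The other chains of the family, which assemble in specialized basement membranes such as that of the kidney glomerulus, did not pass the test. Their log2 FCs were 0.06 for Col4a3, 0.06 for Col4a4, -0.06 for Col4a5 and -0.02 for Col4a6, and the means of these genes lay between 6.99 and 7.99. Col4a6 was dimmer than the median probe set in both lines.

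Col4a1 and Col4a2 are neighbors that are transcribed away from each other. In the RefSeq windows of 300 bases (250 before and 50 after a gene's start, GRCm38.p6) the windows of these genes share 78 bases, and the annotated transcripts overlap by 22 bases at their 5′ ends, on opposite strands. Both windows held a GC box (GGGCGG) and a CCAAT box, searched on both strands. A GC box lay within the 22 overlapping bases, so this match is common to both windows. A GC box was found in 35.7% and a CCAAT box in 37.4% of the windows of all genes, and in 23 and 13 of the 38 windows of the 35 collagen genes that were listed. These matches are descriptions of sequence and not of binding.

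Type VI collagen is a trimer of the chains encoded by Col6a1, Col6a2 and a longer chain, usually from Col6a3. Col6a1 had log2 intensities of 8.31, 8.69 and 8.48 in NME cells and of 9.55, 9.42 and 9.68 in AGR cells. Every AGR array was brighter than every NME array, although the NME arrays were more spread than for the other collagens that passed. The NME mean was 8.50 ± 0.19 (SD, n = 3) and the AGR mean was 9.55 ± 0.13 (SD, n = 3), a 2.08-fold increase (log2 FC 1.06, adjusted p = 6.7e-04 from limma).
Col6a2 had values of 8.65, 8.77 and 8.75 in NME cells and of 9.23, 8.94 and 9.10 in AGR cells. The groups did not overlap, but the gap between them was small. The log2 FC was 0.36 (adjusted p = 0.0162 from limma), and this call was lost without NME replicate 1 (log2 FC 0.33, adjusted p = 0.0714), without NME replicate 3 (0.38, adjusted p = 0.0542), without AGR replicate 3 (0.36, adjusted p = 0.0693) and with the methods' two-sided test after Benjamini-Hochberg adjustment (adjusted p = 0.0795).
Col6a3 had values of 7.76, 7.86 and 7.75 in NME cells and of 7.79, 7.76 and 7.78 in AGR cells. The groups overlapped, and the log2 FC was -0.01 with a 95% interval of -0.13 to 0.10. The alternative long chains gave log2 FCs of 0.01 for Col6a4, -0.10 for Col6a5 and 0.00 for Col6a6, and none of them passed the test.

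The sequences upstream of the 3 type VI genes are shown because their changes were unequal. Each is the 250 bases before a start annotated in the RefSeq windows (GRCm38.p6), written 5′ to 3′ in the direction of transcription, which is the minus strand for all of them. Both strands were searched for a handful of motifs, which are set in capitals where found. The AP-1 site was searched as TGACTCA and, as its reverse complement, TGAGTCA. The GC box was searched with the same letters as above, as was the CCAAT box, while the letters TATAAA stood for the TATA box. The regions are chr10:76726045-76726294 for Col6a1, chr10:76623631-76623880 for Col6a2 and chr1:90843972-90844221 for Col6a3.
Col6a1: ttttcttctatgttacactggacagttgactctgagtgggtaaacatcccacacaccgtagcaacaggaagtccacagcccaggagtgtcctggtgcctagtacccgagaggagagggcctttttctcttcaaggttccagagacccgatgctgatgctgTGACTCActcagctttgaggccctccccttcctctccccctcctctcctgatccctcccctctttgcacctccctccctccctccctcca
Col6a2: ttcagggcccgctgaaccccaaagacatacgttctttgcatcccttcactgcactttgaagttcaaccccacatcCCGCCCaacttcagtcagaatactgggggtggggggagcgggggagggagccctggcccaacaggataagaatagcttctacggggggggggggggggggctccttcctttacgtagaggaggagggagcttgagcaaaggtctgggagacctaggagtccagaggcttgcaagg
Col6a3: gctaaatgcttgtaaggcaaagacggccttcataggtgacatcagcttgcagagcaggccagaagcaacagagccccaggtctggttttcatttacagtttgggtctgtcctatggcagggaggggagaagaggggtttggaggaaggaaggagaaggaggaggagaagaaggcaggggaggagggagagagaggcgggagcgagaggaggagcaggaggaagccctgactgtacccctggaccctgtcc
The Col6a1 window was the 1 of 38 collagen windows with an AP-1 site, which 5.20% of the windows of all genes held. These windows cover 35 of the 44 collagen genes. Col12a1 had no window and was not searched. The Col6a2 sequence held a GC box on the opposite strand. None of the 4 motifs was found in the Col6a3 sequence. A TATA box was in 5 of the 38 collagen windows and in 13.6% of all windows.

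Col12a1 encodes type XII collagen, which sits on type I fibrils and links them to the surrounding matrix. Its log2 intensities were 9.18, 9.20 and 9.19 in NME cells and 10.23, 10.13 and 10.38 in AGR cells. The NME arrays were nearly identical, and the AGR arrays lay far above them. Col12a1 rose 2.08-fold, from 9.19 ± 0.01 (SD, n = 3) to 10.25 ± 0.13 (SD, n = 3), with a log2 FC of 1.06 (adjusted p = 8.7e-05 from limma). Of the 9 fibril-associated genes measured, Col12a1 was the one that passed the test. The log2 FC of Col14a1, which encodes a close relative of type XII collagen, was 0.05. That of Col16a1 was 0.03, and the genes for the type IX chains of cartilage, Col9a1, Col9a2 and Col9a3, had values of -0.02, -0.03 and -0.01. Col19a1, Col20a1 and Col22a1 gave -0.06, -0.05 and -0.04. These 8 genes had a lowest adjusted p of 0.543.

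Types XV and XVIII collagen belong to the basement membrane zone and end in a domain that can be released as an anti-angiogenic fragment, which is endostatin in the case of type XVIII. Their genes changed in opposite directions. Col18a1 had log2 intensities of 10.41, 10.53 and 10.51 in NME cells and of 10.93, 10.91 and 10.91 in AGR cells. The AGR arrays agreed closely and lay above all NME arrays. This was a 1.35-fold increase (log2 FC 0.44, adjusted p = 9.3e-04 from limma).
Col15a1 had values of 8.70, 8.77 and 8.70 in NME cells and of 8.43, 8.37 and 8.26 in AGR cells. All AGR arrays lay below all NME arrays. Col15a1 fell by 0.37 on the log2 scale (adjusted p = 0.00377 from limma), which is a 1.29-fold decrease.

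The 11 fibrillar genes had log2 FCs between -0.12 and 0.14, and their 95% intervals all lay between -0.24 and 0.28. Col1a1, which encodes the main chain of type I collagen, had log2 intensities of 8.80, 8.92 and 8.86 in NME cells and of 8.94, 8.85 and 8.82 in AGR cells. The values of the cell lines were interleaved, and the log2 FC was 0.01. For Col1a2, the partner chain, the log2 FC was -0.07. Col3a1, the fibrillar collagen of soft tissue, had values of 8.51, 8.61 and 8.57 in NME cells and of 8.63, 8.57 and 8.45 in AGR cells, a log2 FC of -0.01. These intervals are unadjusted and describe the intensity. In NME cells Col9a2 and Col9a3, genes for chains of cartilage, had means of 9.02 and 9.09, above the 8.86 of Col1a1. Col9a1 was dimmer, at 7.88. Whether the fibrillar genes, Col1a1 included, were above background was not tested.
Type V collagen nucleates fibrils, and its chains came nearest to a call. Col5a1 had values of 8.36, 8.51 and 8.50 in NME cells and of 8.61, 8.53 and 8.64 in AGR cells, a log2 FC of 0.14 (adjusted p = 0.143 from limma). Col5a2 had values of 7.24, 7.32 and 7.26 in NME cells and of 7.19, 7.18 and 7.09 in AGR cells, a log2 FC of -0.12 (adjusted p = 0.137 from limma). The groups did not overlap for either gene, but the differences were small and neither passed the adjusted test. Col5a2 was also dimmer than the median probe set. The log2 FC was 0.04 for Col5a3, 0.05 for Col11a1, 0.02 for Col11a2, -0.05 for Col2a1, -0.05 for Col24a1 and 0.03 for Col27a1.

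**Figure D2:**
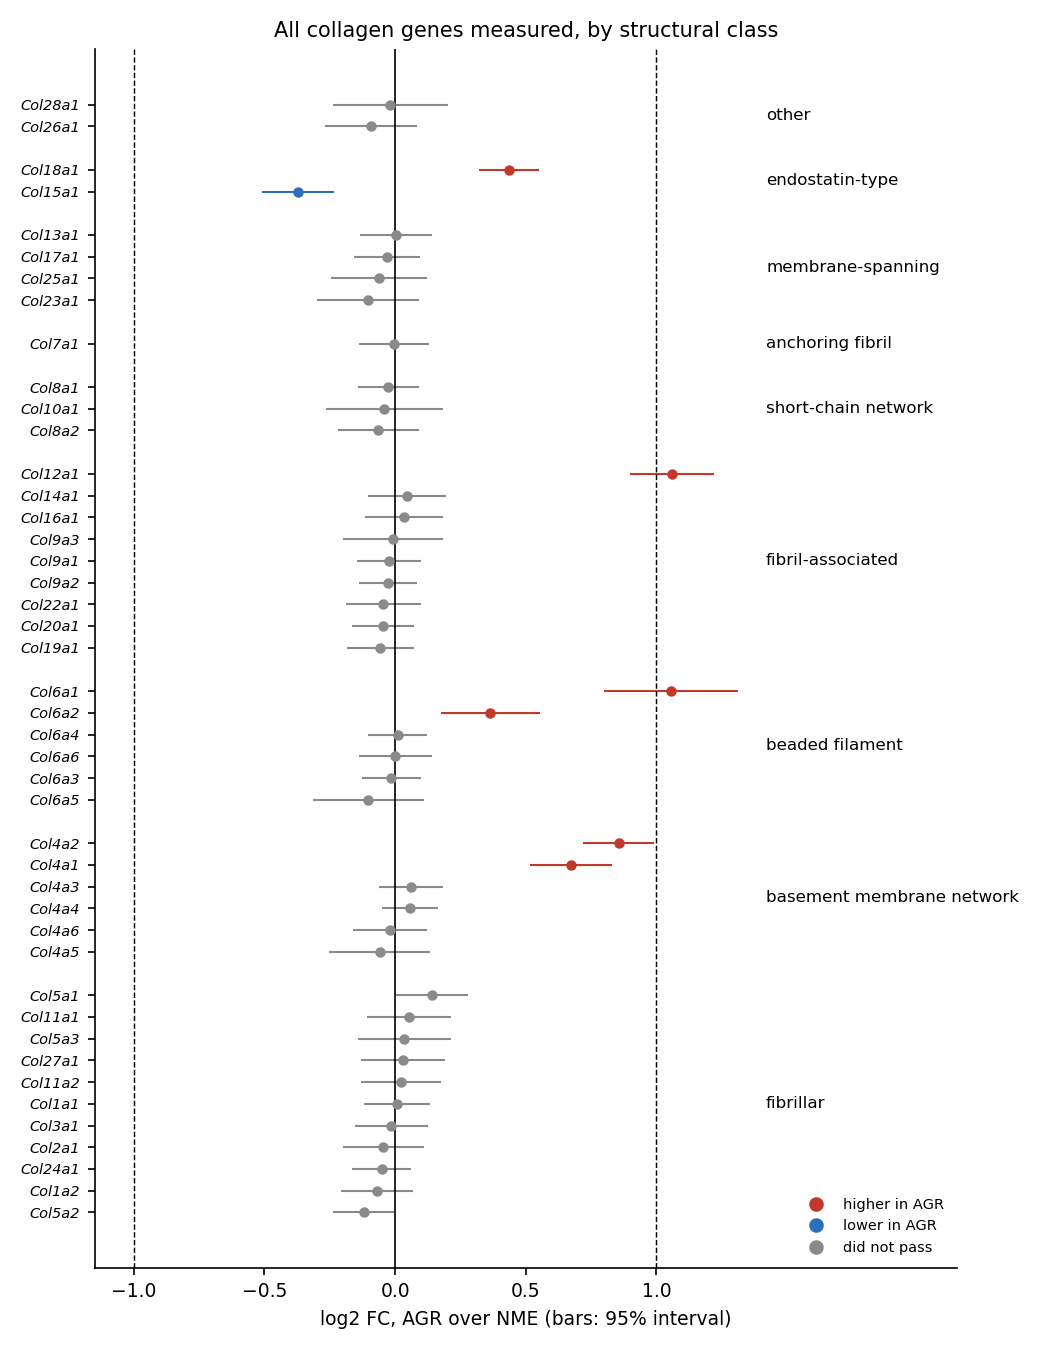
Change of each gene as log2 FC, AGR over NME (x axis, points with the 95% interval from limma, n = 3 arrays for each line) of the 44 collagen genes (y axis), grouped by structural class. Genes called higher are red, genes called lower are blue (adjusted p under 0.05) and the others gray, and dashed lines mark a FC of 2; the 11 fibrillar genes lay between -0.12 and 0.14.

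The remaining genes encode collagens of other structures. Col8a1, Col8a2 and Col10a1, which form short-chain networks, had log2 FCs of -0.03, -0.06 and -0.04. Col7a1, which encodes the anchoring fibrils below stratified epithelia, had a mean of 8.84 ± 0.06 (SD, n = 3) in NME cells and of 8.83 ± 0.07 (SD, n = 3) in AGR cells. The membrane-spanning collagens gave log2 FCs of 0.00 for Col13a1, -0.03 for Col17a1, -0.11 for Col23a1 and -0.06 for Col25a1. Col17a1 encodes the collagen of hemidesmosomes, which tie epithelial cells to the basement membrane. Col26a1 and Col28a1 had log2 FCs of -0.09 and -0.02.
Over the 37 collagen genes that did not pass, the log2 FCs lay between -0.12 and 0.14 and the unadjusted 95% intervals between -0.31 and 0.28. Means of these genes were between 6.99 and 9.09. In both cell lines 6 of these genes were dimmer than the median probe set, namely Col4a6, Col5a2, Col8a1, Col10a1, Col14a1 and Col19a1.

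Whether the chains of 1 trimer changed alike was examined in 11 pairs of genes. On each array the log2 ratio of the chains was taken, and its difference between the cell lines was tested with an exact permutation test (two-sided). With 3 arrays against 3 the smallest p this test can give is 0.1, so no pair could pass at 0.05. For Col6a1 over Col6a3 the log2 ratio was higher in AGR cells by 1.07 (SE 0.10), and for Col6a1 over Col6a2 by 0.69 (SE 0.11). The AGR and NME arrays did not overlap in either ratio, which gave the smallest exact p of 0.1 (adjusted p = 0.275 over the 11 pairs). Col4a1 over Col4a2 was lower by 0.18 on the log2 scale (SE 0.03, exact p = 0.1), and Col5a1 over Col5a2 was higher by 0.26 (SE 0.07, exact p = 0.1).
For the other pairs the difference was between -0.04 and 0.08, with exact p-values from 0.2 to 0.9. They were Col1a1 and Col1a2, Col4a3 and Col4a4, Col4a5 and Col4a6, Col8a1 and Col8a2, the type IX chains, and Col11a1 and Col11a2. A ratio on an array shows unequal change of intensity and not which chain was in excess. Col6a3, with means of 7.79 in NME and 7.78 in AGR cells, lay close to the median probe set of 7.61. Col5a2 was dimmer than that median. Whether the intensities of these chains follow their transcripts was not tested.

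**Figure D3:**
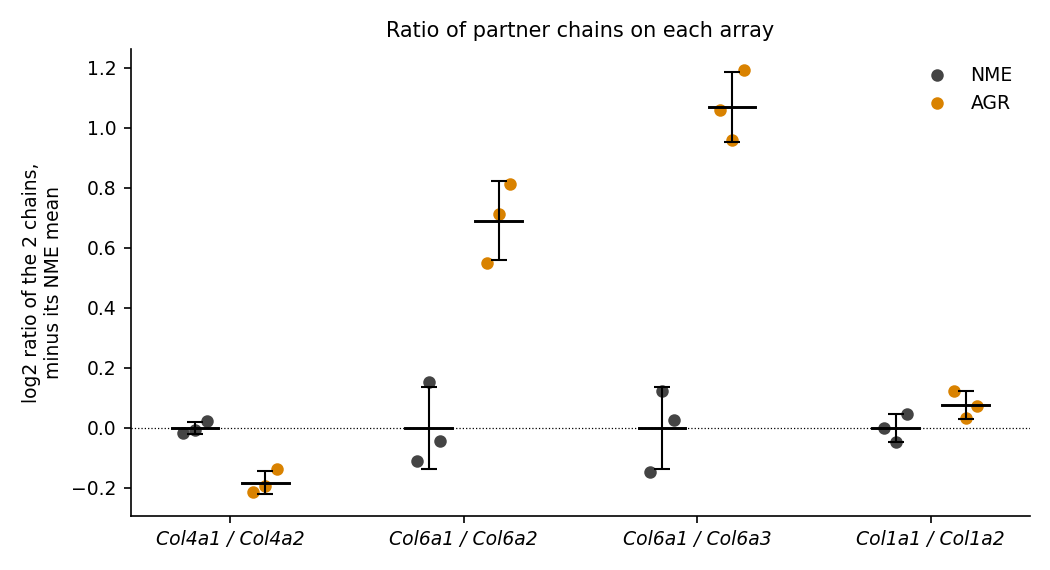
Log2 ratio of a pair of collagen chains on each array (y axis), after the mean ratio in NME cells was subtracted, for 4 of the 11 pairs (x axis), with dark gray points for the 3 NME arrays, orange points for the 3 AGR arrays, and the mean and SD in black. The ratio of Col6a1 to Col6a3 was higher in AGR cells by 1.07, while that of Col1a1 to Col1a2 differed by 0.08 and its groups overlapped.

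Collagen chains are hydroxylated and folded in the endoplasmic reticulum, trimmed outside the cell and then crosslinked. Of 41 measured genes for these steps, 14 rose and 7 fell in AGR cells (limma, adjusted p under 0.05), which is 34.1% and 17.1% against 12.6% and 11.6% of all genes, and the median log2 FC was 0.04. P3h2, a prolyl 3-hydroxylase that acts on type IV collagen, had log2 intensities of 9.13, 9.04 and 9.06 in NME cells and of 11.44, 11.72 and 11.58 in AGR cells. The groups were far apart, with a log2 FC of 2.50.
Pcolce2, an enhancer of procollagen trimming, rose by a log2 FC of 2.09, while its relative Pcolce fell by 0.63 on the log2 scale. Plod2, the lysyl hydroxylase that prepares crosslinks, had a log2 FC of 1.55. Pxdn, the peroxidase that crosslinks type IV collagen, had a log2 FC of 1.01. The subunit genes of prolyl 4-hydroxylase, which stabilizes all collagen helices, went both ways, with 0.44 for P4ha2 and -0.37 for P4ha1. Mep1a, a protease that can trim fibrillar procollagen, fell by 2.81 on the log2 scale. Serpinh1, the collagen chaperone, had a log2 FC of 0.09 (adjusted p = 0.356 from limma), and Lox, a crosslinking oxidase, had 0.03 at an intensity dimmer than the median probe set.

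Of 16 measured genes for collagen receptors, 2 were higher (12.5%, against 12.6% of all genes) and 4 were lower (25%, against 11.6%), with a median log2 FC of -0.03. Itga1, the integrin subunit that prefers type IV collagen, had log2 intensities of 9.64, 9.63 and 9.70 in NME cells and of 6.99, 6.66 and 6.49 in AGR cells. The AGR arrays fell below the median of the probe sets, with a log2 FC of -2.94. The shared partner subunit Itgb1 rose with a log2 FC of 0.77.
Adgrg6, an adhesion receptor for type IV collagen, rose with 0.85. Antxr1, which binds several collagens, fell by 2.79, Adgrg1, a receptor for type III collagen, fell by 1.26, and Antxr2 fell by 0.58 on the log2 scale. Itga2, the subunit that prefers fibrillar collagen, had a log2 FC of 0.20 (adjusted p = 0.222 from limma), and Ddr1, the epithelial collagen kinase, had -0.22 (adjusted p = 0.161 from limma).
Ddr2, the kinase for fibrillar collagen, had values of 8.91, 9.13 and 8.85 in NME cells and of 9.21, 10.68 and 9.66 in AGR cells. AGR replicate 2 was much brighter than the other AGR arrays, and the log2 FC of 0.89 did not pass (adjusted p = 0.12 from limma).

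Of 22 proteases that degrade collagen, 5 were higher and 2 were lower, or 22.7% and 9.09% beside the same 12.6% and 11.6% of all genes. Those that rose were Ctsl, Mmp10, Mmp19, Mmp2 and Adam9, with log2 FCs of 0.83, 0.67, 0.62, 0.52 and 0.20. Mmp13, a collagenase of fibrillar collagen, fell by 2.19 on the log2 scale, and Mmp11 fell by 0.29. Of 32 genes for matrix proteins that bind collagen, Thbs1, Fn1 and Ecm1 rose, with log2 FCs of 3.40, 1.44 and 0.50. That is 9.38% of the list against 12.6% of all genes, and 0 were lower, against 11.6%. In both lines 22 of the 32 were dimmer than the median probe set.
The basement membrane holds laminins, nidogens and perlecan beside type IV collagen. Of 27 measured genes, 5 were higher (18.5%, against 12.6% of all genes) and 2 were lower (7.41%, against 11.6%). The median log2 FC was -0.03. Nid1, which joins the laminin and collagen networks, had a log2 FC of 1.21, from 7.55 ± 0.02 (SD, n = 3) to 8.77 ± 0.17 (SD, n = 3). Lamb1 had 0.96, Hspg2, the gene for perlecan, had 0.40, Lamb3 had 0.25 and Npnt had 0.13. Lamc1 and Agrn fell by 0.42 and 0.38.
Whether the shares of these 5 lists differed from those of the collagen genes, 13.6% higher and 2.27% lower, was not tested.

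**Figure D4:**
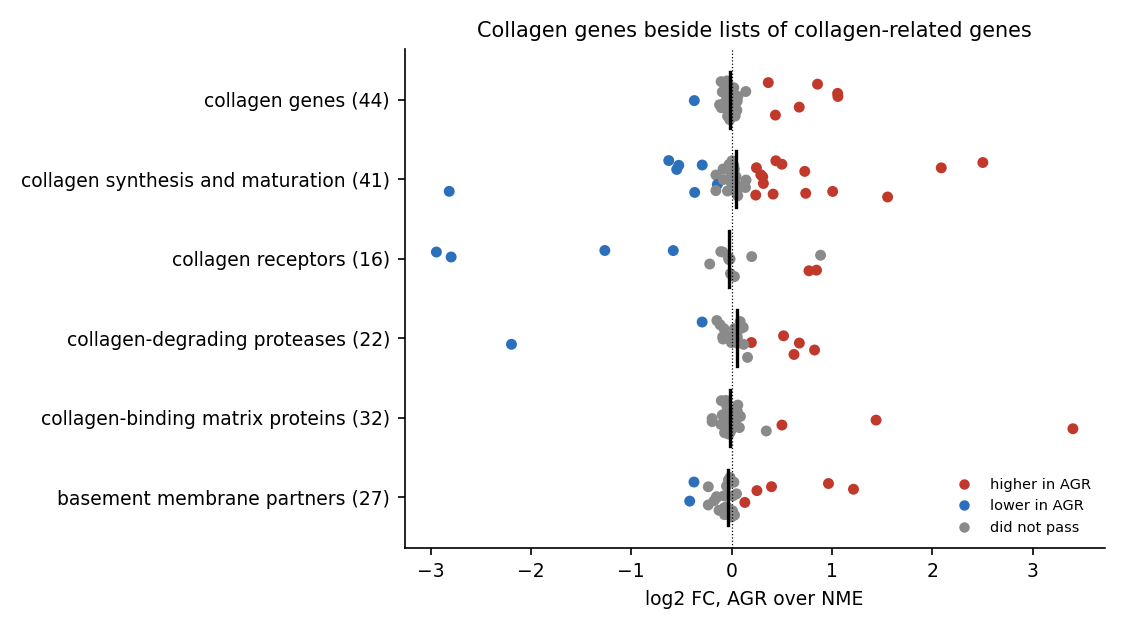
Change as log2 FC, AGR over NME (x axis), of the collagen genes and of each gene of 5 lists of collagen-related genes (y axis, number of genes in parentheses, points spread vertically for legibility). Red marks genes called higher and blue genes called lower (adjusted p under 0.05), gray the rest, and black lines are medians, which lay between -0.03 and 0.05.

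The labelled cell type was checked against markers. Krt8 and Krt18, keratins of simple epithelium, had mean log2 intensities of 14.23 and 13.63 in NME cells and of 14.13 and 13.58 in AGR cells. Epcam was dim in both lines, at 6.58 and 6.51. Of 16 epithelial genes, 4 were dimmer than the median probe set in both lines, namely Epcam, Cldn7, Esrp1 and Grhl2. The 10 that did not pass were these 4, Krt8, Krt18, Krt7, Cldn3, Cldn4 and Tjp1. The other 6 were lower in AGR cells, which is 37.5% against 11.6% of all genes, and 0 were higher. The log2 FCs were -2.54 for Ehf, -1.96 for Ocln, -1.46 for Elf3, -1.04 for Krt19, -0.80 for Esrp2 and -0.60 for Cdh1. The summed intensity of the epithelial list ranged from 67786 to 68790 in NME cells and from 51655 to 53404 in AGR cells.
Fibroblasts are rich in collagen, so their markers other than collagens were read as well. Of 16 genes, S100a4 and Pdgfra were higher, with log2 FCs of 1.17 and 0.39. That is 12.5% of the list, near the 12.6% of all genes, and 0 were lower. The median log2 FC of this list was -0.02, and 12 of the 16 genes were dimmer than the median probe set in both lines. Defining genes were dim, with means of 6.63 and 6.61 for Dcn, 4.58 and 4.54 for Lum and 5.51 and 5.50 for Postn in NME and AGR cells. The summed intensity of the fibroblast list ranged from 3056 to 3232 in NME cells and from 3978 to 5204 in AGR cells. S100a4 alone went from a range of 982 to 1329 to a range of 2017 to 3199. Without it, a choice made after its values were seen, the sum of the other 15 genes was 1886 to 2074 in NME cells and 1957 to 2006 in AGR cells, so the groups overlapped. The part of the full list's rise in the changes of collagen genes was not tested.
Of 10 chondrocyte markers, 0 passed in limma, and 1, Chad, had an unadjusted p under 0.05 with a log2 FC of -0.19. Of 10 endothelial markers Flt1 fell, which is 10% against 11.6% of all genes. Of 10 immune markers Cd68 and Csf1r rose and Cd14 fell. These shares are 20% and 10%, against 12.6% and 11.6% of all genes. Summed intensities in NME and AGR cells were 1837 to 1938 and 1657 to 1725 for the endothelial list, 4486 to 4809 and 3477 to 4030 for the immune list, and 3847 to 4093 and 3263 to 4388 for the chondrocyte list. A linear sum is weighted toward bright genes, and the brightest were Flt1 in the endothelial list and Cd14 in the immune list. Their mean log2 intensities in NME and AGR cells were 8.91 and 8.24 for Flt1 and 11.68 and 11.08 for Cd14. Sums without these genes were not taken. In both lines 6 of the 10 endothelial and 6 of the 10 immune markers were dimmer than the median probe set. Pecam1, Cdh5 and Ptprc were among them. The same held for 7 of the 10 chondrocyte markers.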

How the data were processed

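The arrays (Affymetrix Mouse Gene 1.0 ST) held RNA of 3 NME and 3 AGR samples. The deposited values are linear intensities that the authors had already processed. The submitters' processing notes name MAS5, and since this array type has no mismatch probes the normalization remains unknown. Of 35557 probe sets, 21789 had 1 gene symbol, 1621 had several and 12147 had none, and 21698 of the former matched RefSeq genes. The brightest probe set was kept for each of 19938 genes. Log2 intensities were compared with limma 3.58.1 (R 4.3.3) and Benjamini-Hochberg adjustment over all genes, after the code was tested on simulated data. Array medians were 190.4 to 200.8, and precision is limited by having 3 arrays for a line.
The members and gene lists were chosen with earlier results of these data known. Values on every array were planned for collagens that were DEGs or bright, and from other lists the DEGs and epithelial markers were to be named. Other collagens with array values and other list genes were chosen after their values were seen. Alternatives were scaling, filters on dim genes, probe set choice, variance model, the methods' test, an offset, a replicate block, the fold threshold and leaving out arrays. Promoter windows came from RefSeq (GRCm38.p6). Col21a1 was not analysed here.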

Additional observations from a re-analysis of the deposited data

How the results depend on the processing

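Of the 7 collagen genes called, 6 passed in all 17 alternatives, with log2 FCs of 0.99 to 1.12 for Col12a1, 0.96 to 1.15 for Col6a1, 0.81 to 0.89 for Col4a2, 0.61 to 0.71 for Col4a1, 0.40 to 0.46 for Col18a1 and -0.41 to -0.32 for Col15a1. Col6a2 passed in 13 (0.29 to 0.44, adjusted p from 0.00487 to 0.0795). Among the 17 was the methods' two-sided test at an unadjusted p, which Col6a2 passed (unadjusted p = 0.0163). The 7 genes had 1 probe set each, so the probe set choice could not change their log2 FCs. Filters, variance model, test and replicate block act on the p-value and leave the log2 FC as it was. With the methods' test at an unadjusted p under 0.05 the number of lower collagens was 2 in place of 1. With a FC above 1.5 the number of higher DEGs was 4, and with 1 array left out it ranged from 0 (without AGR replicate 3) to 2, with 1 without NME replicate 1. With only genes above the median of probe sets, 3 proteases and 1 fibroblast marker were higher and 4 basement membrane partners were lower. The chain pairs and the median log2 FC moved by less than their spread. With the replicate number as a replicate block, 6 collagens were higher and 1 lower, Col6a2 had an adjusted p of 0.0272 (limma), and 5040 genes were called in place of 4819. Arrays of the same number deviated with correlations of -0.13, 0.20 and 0.01, and 1 of 3 correlated best with its own number, so the numbers were not taken as pairs. Signal near background limits what the dim collagens can show.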

Other observations

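NME replicate 2 was the highest or tied highest NME array for 43 of 44 collagen genes. After quantile normalization it was so for 41 of 44, and after each array was centred on its median for 34 of 44, against 39.4% and 23% of all genes. These scalings were chosen after seeing the data. The median excess of this array over the other NME arrays was 0.11, 0.12 and 0.06 on the log2 scale as deposited, after quantile normalization and after centring.
Among 18 measured neighbors of the called collagen genes in the RefSeq gene order, chosen after the collagen values were seen, 4 were higher, 4 were lower and 10 did not pass. Of all genes, 12.6% were higher and 11.6% were lower, and whether the neighbors differ from them was not tested. Cd109, beside Col12a1, had a log2 FC of 2.81 and Irs2, beside Col4a1, had 0.81. Beside Col15a1, Tgfbr1 fell by 1.09 and Galnt12 fell by 0.68 on the log2 scale. The other neighbors called were Pcbp3 (log2 FC 0.33, near Col6a1, Col6a2 and Col18a1), Adarb1 (0.37, near Col18a1), Anks6 (-0.31, near Col15a1) and Naxd. Naxd fell by 0.23 near Col4a2, which rose. Among genes directly beside a called collagen, Cox7a2, Slc19a1, Pofut2, Rab20 and Ftcd did not pass.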
